A study of Rattus norvegicus with 12 samples.

Results

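Rat aortic rings were used here to follow the genes of glycolysis and of the transcriptional response to low oxygen. The genes were a list of 39 symbols, looked up in the gene annotation of the arrays, with 1 probe set per gene (the one of highest mean over all arrays). Of these, 38 were measured, out of 14324 genes with a value, and Hk1 is not analysed here. They comprised 15 glycolytic enzymes, 6 glucose transporters and flux regulators, 4 genes of oxygen sensing and 13 other hypoxia targets.

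Glycolysis splits glucose into pyruvate in the cytosol, and lactate dehydrogenase can then turn pyruvate into lactate in place of its oxidation in mitochondria. The hypoxia-inducible factors (HIF) are transcription factors whose alpha subunits are hydroxylated by prolyl hydroxylases and degraded when oxygen is plentiful, and inflammatory cytokines can also raise HIF-1 alpha. Many glycolytic genes carry HIF binding sites, and endothelial cells draw much of their ATP from glycolysis.

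The rings came from male Fisher 344 rats of 1 to 2 months, embedded in collagen or fibrin gel in serum-free EBM medium, and RNA was taken at day 2. The 4 groups of 3 arrays were collagen control and fibrin control (untreated) and collagen TNF and fibrin TNF (10 ng/ml recombinant rat tumour necrosis factor alpha, an inflammatory cytokine). Each sample pooled 4 to 6 ring cultures, and the labels name the replicates as biological without saying whether they came from different animals. The p-values below therefore speak only of the variation among these pooled cultures. The labels used here give no oxygen level, and in whole cultures fewer cells of a type and less RNA per cell cannot be told apart.

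Levels are log2 expression values, and array values are given in the order of replicates 1, 2 and 3. Array medians lay between 5.943 and 5.975 in collagen and between 5.893 and 5.928 in fibrin. Log2 differences carry the standard error (SE) of 1 limma fit to all 12 arrays, group levels the standard deviation (SD) with n = 3. A gene was called, and is said to have risen or fallen, where its two-sided p adjusted by Benjamini-Hochberg over all 14324 genes was under 0.05. The smooth muscle, endothelial, fibroblast and macrophage markers averaged 7.86 to 12.36 per array, above the array medians. The T cell markers averaged 4.10 to 4.39 per array, the B cell markers 4.06 to 4.67 and the neutrophil markers 4.18 to 4.61, all below the array medians.

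Across the 4 groups, the genes lay higher with TNF in collagen and lower with TNF in fibrin. Relative to the collagen control mean of each gene, the median over the 38 genes was -0.08, 0.04 and 0.04 on the collagen control arrays and 0.15, 0.20 and 0.20 on the collagen TNF arrays. It was 0.03, 0.15 and 0.27 on the fibrin control arrays and -0.09, 0.01 and -0.06 on the fibrin TNF arrays. By this median the collagen TNF arrays all stood above the collagen controls, and the fibrin TNF arrays all stood below the fibrin controls. Of the 38 genes, 29 (76.3%) had a positive TNF difference in collagen and a negative one in fibrin, against 20.7% of all genes. These comparisons share no array, but the genes were chosen with earlier results of these data known. The genes also moved together by array, as given below, so the 38 signs are not separate observations. At least 1 of the 5 comparisons called 22 of the genes, and 16 were called in none. The like count over all genes was not taken, so the 22 cannot be set against it. Single comparisons called 1.24% to 10.5% of all genes.

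**Figure D1:**
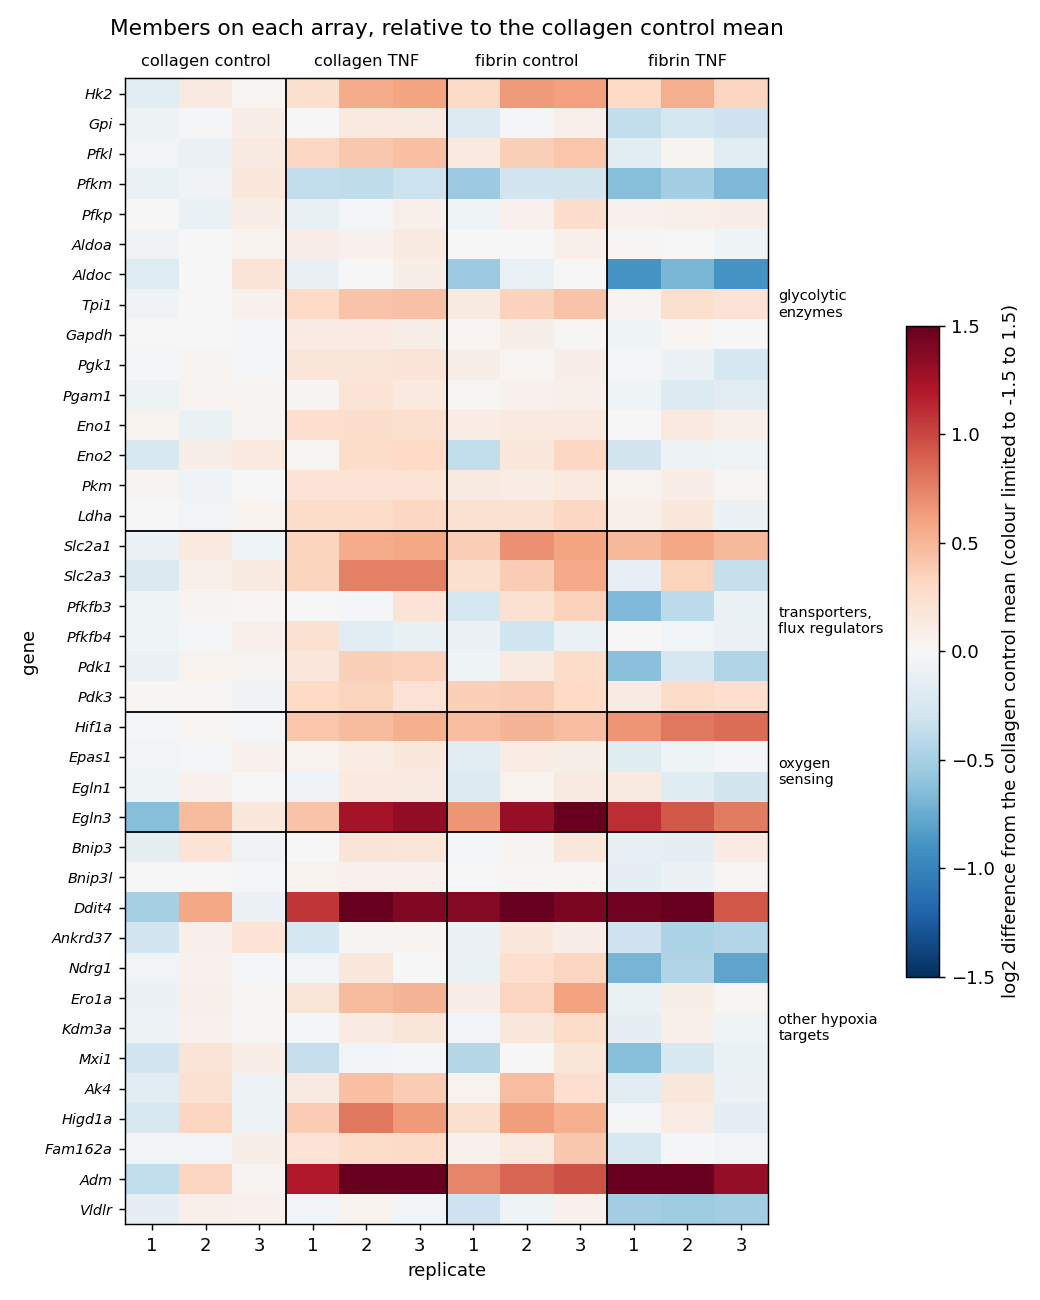
Log2 level of each of the 38 measured genes (rows, grouped by role) on each of the 12 arrays (columns, 3 per group), as the difference from that gene's mean in the 3 collagen control arrays, with the colour scale ending at -1.5 and 1.5. The collagen TNF columns are mostly above the collagen control level, with array medians of 0.15 to 0.20, and the fibrin TNF columns lie near it, with medians of -0.09 to 0.01.

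Replicate 1 was often the lowest array of its group for these genes. It was the lowest for 30 of the 38 genes among the collagen controls, for 29 in collagen TNF, for 32 among the fibrin controls and for 18 in fibrin TNF. Over all genes it was the lowest for 34.2%, 28.0%, 36.0% and 34.5%. Each count below was therefore also taken without replicate 1 of every group.

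The TNF effect itself was then compared between the gels, as the log2 TNF difference in fibrin minus that in collagen. This difference of effects was called for 6 of the 38 genes, all with a lower effect in fibrin, against 1.24% of all genes called in either direction and 0.866% called lower. They were the phosphofructokinase Pfkl, the lactate dehydrogenase Ldha, the pyruvate dehydrogenase kinase Pdk1 and the hypoxia targets Ddit4, Ndrg1 and Higd1a. All 6 had a positive TNF difference in collagen and a negative one in fibrin, signs that selection by this difference favours. Of them only Pfkl was called with TNF in both gels. The median difference of effects over the 38 genes was -0.41, with 35 negative, against 0.01 over all genes.

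Pfkl encodes the liver-type phosphofructokinase, which catalyses the main committed step of glycolysis. Its levels were 10.11, 10.06 and 10.29 on the collagen control arrays, 10.46, 10.56 and 10.61 with TNF in collagen, 10.30, 10.51 and 10.57 on the fibrin control arrays and 10.00, 10.19 and 9.98 with TNF in fibrin. In each gel the treated and untreated arrays did not overlap, in opposite directions. Pfkl rose by 0.39 ± 0.09 (SE) in collagen (limma, adjusted p = 0.0255) and fell by 0.40 ± 0.09 in fibrin (adjusted p = 0.0349). The difference of effects was -0.79 ± 0.13 (adjusted p = 0.0113, and 0.00121 to 0.0366 over the other fits, apart from 0.0933 without replicate 1 of every group).

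Pdk1 encodes a kinase that inhibits pyruvate dehydrogenase and so holds pyruvate back from mitochondrial oxidation. It stood at 8.99, 9.13 and 9.12 on the collagen control arrays, at 9.25, 9.44 and 9.42 in collagen TNF, at 9.01, 9.22 and 9.36 on the fibrin control arrays and at 8.45, 8.83 and 8.63 in fibrin TNF, where all 3 values were below every other array. The decrease with TNF in fibrin was called, at -0.56 ± 0.11 (adjusted p = 0.0144), while the difference in collagen of 0.29 ± 0.11 was not (adjusted p = 0.163). Its difference of effects was -0.85 ± 0.15 (adjusted p = 0.0187). Ldha, which interconverts pyruvate and lactate, measured 12.86, 12.82 and 12.92 in collagen control, 13.14, 13.14 and 13.18 in collagen TNF, 13.10, 13.09 and 13.18 in fibrin control and 12.94, 13.02 and 12.78 in fibrin TNF. Its collagen controls lay below its collagen TNF arrays, and its fibrin controls lay above its fibrin TNF arrays. The difference of effects for Ldha was -0.50 ± 0.10 (adjusted p = 0.0309), and a further Ldha probe set, not tested, gave -0.46.

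Ddit4 encodes an inhibitor of the growth-controlling kinase complex mTORC1. Its values were 8.33, 9.41 and 8.74 on the collagen control arrays, spread more widely than in the other groups, and 9.90, 10.42 and 10.22 in collagen TNF. In fibrin they were 10.20, 10.45 and 10.24 without TNF and 10.29, 10.35 and 9.76 with it, groups that overlapped. The untreated collagen rings were thus the low group, and the difference of effects was -1.52 ± 0.33 (adjusted p = 0.0488). Higd1a, which encodes a mitochondrial inner membrane protein induced by hypoxia, measured 8.63, 9.19 and 8.80 in collagen control, 9.25, 9.67 and 9.51 in collagen TNF, 9.11, 9.50 and 9.41 in fibrin control and 8.86, 8.99 and 8.74 in fibrin TNF. Its fibrin TNF arrays lay below all fibrin control arrays, and its difference of effects was -1.08 ± 0.21 (adjusted p = 0.0275).

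Ndrg1, a stress- and differentiation-responsive gene long used as a marker of hypoxia, measured 10.77, 10.87 and 10.78 in collagen control and 10.76, 10.98 and 10.80 in collagen TNF, which overlapped. In fibrin it measured 10.71, 11.06 and 11.13 without TNF and 10.11, 10.36 and 10.02 with TNF, below all other arrays. Its difference of effects was -0.84 ± 0.16 (adjusted p = 0.0265). Slc2a3 (-1.06 ± 0.24, adjusted p = 0.0571), which encodes the glucose transporter GLUT3, had a larger difference of effects than Pfkl but a larger error, and was not called. Pairing the arrays by replicate number within each gel called 10 genes, all lower: 5 of the 6 above, without Ldha (adjusted p = 0.0714), and also Hk2 (0.0457), Tpi1 (0.0282), Ero1a (0.0365), Ak4 (0.026) and Fam162a (0.0409). The count was 2 without collagen control replicate 1 or 3, fibrin control replicate 3, or fibrin TNF replicate 1 or 3, and 1 without collagen TNF replicate 2 or 3 or fibrin control replicate 2, and of the 6 genes Pfkl was the 1 that stayed called in all 12 fits that left out an array. Without replicate 1 of every group none of the 6 was called, and the 1 gene called was Egln3 (-1.52, adjusted p = 0.0256). In that fit 0.251% of all genes were called.

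**Figure D2:**
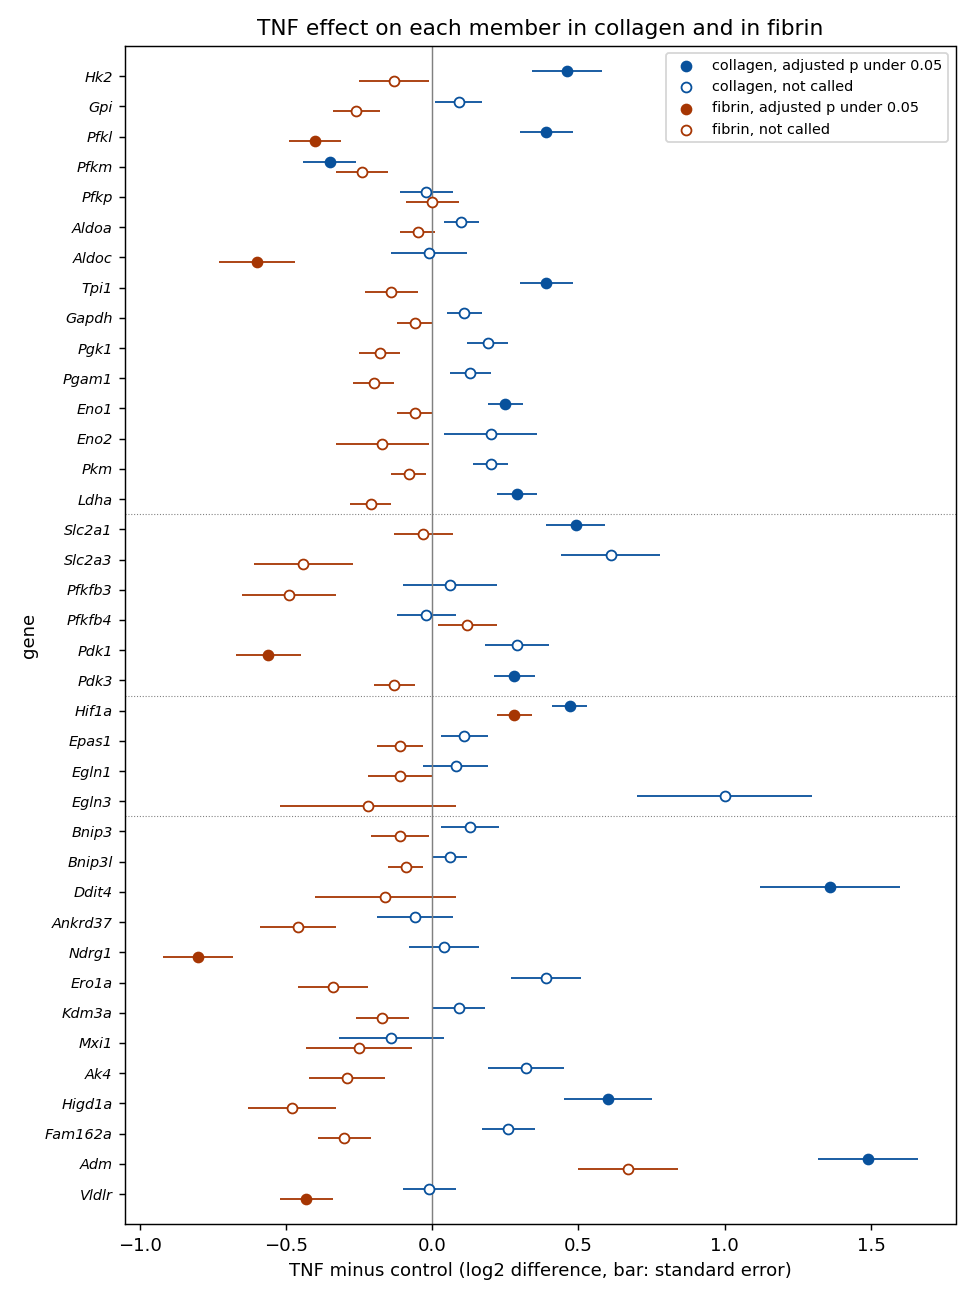
TNF effect on each of the 38 genes (log2 difference of TNF against control, with bars of 1 SE from the limma fit) in collagen and in fibrin. In collagen most points lie to the right of 0 (median 0.20) and in fibrin 35 of 38 lie to the left (median -0.18), and Adm and Ddit4 have the largest effects in collagen, at 1.49 and 1.36.

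The promoters of genes with a called difference of effects are shown because the HIF complex binds a short core motif. Ndrg1, also called for that difference, is missing because no promoter window was found for it. Windows of 250 bases before the annotated transcription start were taken from RefSeq on assembly GRCr8, read 5′ to 3′ on the gene's strand. Capitals mark ACGTG or GCGTG, the core letters of a HIF site, or their complements CACGT and CACGC. The windows lay at chr20:10663715-10663964 (plus strand) for Pfkl, chr1:106507842-106508091 (plus) for Ldha, chr3:77113264-77113513 (plus) for Pdk1, chr20:28437038-28437287 (minus) for Ddit4 and chr8:130400889-130401138 (minus) for Higd1a. The window of Adm at chr1:174179950-174180199 (plus) is set beside them because Adm had the largest TNF effect in collagen and its window holds 0 matches.
Pfkl: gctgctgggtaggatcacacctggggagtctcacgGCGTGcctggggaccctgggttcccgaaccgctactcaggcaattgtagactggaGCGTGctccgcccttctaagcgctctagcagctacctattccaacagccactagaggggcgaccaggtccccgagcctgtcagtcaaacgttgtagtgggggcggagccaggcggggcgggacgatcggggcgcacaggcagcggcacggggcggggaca
Ldha: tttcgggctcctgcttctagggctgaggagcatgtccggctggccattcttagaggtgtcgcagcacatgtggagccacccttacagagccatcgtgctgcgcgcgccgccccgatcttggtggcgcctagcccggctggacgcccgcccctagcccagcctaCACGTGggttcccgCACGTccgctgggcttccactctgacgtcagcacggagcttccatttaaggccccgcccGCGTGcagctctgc
Pdk1: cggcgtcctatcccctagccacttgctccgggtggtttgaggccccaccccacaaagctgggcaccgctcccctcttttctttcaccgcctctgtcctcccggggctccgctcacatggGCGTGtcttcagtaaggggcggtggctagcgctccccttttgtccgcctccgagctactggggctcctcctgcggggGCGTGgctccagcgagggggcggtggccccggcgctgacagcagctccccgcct
Ddit4: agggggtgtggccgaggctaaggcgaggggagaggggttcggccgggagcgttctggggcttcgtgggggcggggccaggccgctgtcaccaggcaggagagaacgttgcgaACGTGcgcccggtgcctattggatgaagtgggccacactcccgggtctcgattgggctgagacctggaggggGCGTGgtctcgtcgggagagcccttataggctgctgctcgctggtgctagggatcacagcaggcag
Higd1a: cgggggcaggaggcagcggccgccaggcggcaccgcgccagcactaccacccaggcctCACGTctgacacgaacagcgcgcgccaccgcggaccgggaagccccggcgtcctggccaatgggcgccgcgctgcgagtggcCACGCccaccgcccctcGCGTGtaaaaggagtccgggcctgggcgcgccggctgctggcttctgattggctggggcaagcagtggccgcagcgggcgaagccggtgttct
Adm: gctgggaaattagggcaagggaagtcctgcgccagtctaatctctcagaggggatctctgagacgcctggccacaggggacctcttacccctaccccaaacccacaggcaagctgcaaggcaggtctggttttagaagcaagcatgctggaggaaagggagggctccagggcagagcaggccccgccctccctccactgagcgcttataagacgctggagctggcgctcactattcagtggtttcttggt
The Ldha window holds 4 matches, with ACGTG and CACGT overlapping in CACGTG, the Higd1a window 3, and those of Pfkl, Pdk1 and Ddit4 2 each.

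Promoter windows were found for 33 of the 38 genes, with 37 windows in all, and 25 genes had at least 1 match on either strand. Of the 37 windows, 26 (70.3%) held a match, against 12284 of 33469 windows of all genes (36.7%). The windows of these genes were also richer in CG dinucleotides, which both motifs contain, with a median of 19 against 5. Among windows with 15 to 25 CG dinucleotides, 14 of 19 windows of these genes (73.7%) and 65.0% of all windows held a match. Hk2, Tpi1, Egln3 and Gpi, described below, had 0 matches, while Slc2a1 had 4, Pdk3 5 and Hif1a 3.

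The TNF comparison in collagen asked what the cytokine did to these genes in collagen. TNF raised the RNA of genes at several steps between glucose uptake and lactate. The RNA of Hif1a, which encodes the HIF-1 alpha subunit, and of some classic hypoxia targets also rose. The subunit itself, a protein, was not measured. The comparison called 12 of the 38 genes, 11 higher and 1 lower, against 6.37% of all genes called in either direction, 3.27% higher and 3.1% lower. The counts were 5 higher and 1 lower of the 15 glycolytic enzymes, 2 higher of the 6 transporters and flux regulators, 1 higher of the 4 oxygen-sensing genes and 3 higher of the 13 other hypoxia targets. The median log2 difference of the 38 genes was 0.20, against 0.00 over all genes. The arrays did not overlap for 20 genes that were higher and for 1 that was lower, against 12.7% and 13.8% of all genes.

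Among the enzymes, Hk2, the hexokinase that traps glucose as its phosphate, went from 9.06, 9.36 and 9.25 on the collagen control arrays to 9.46, 9.78 and 9.82 with TNF. All treated arrays stood above all controls, a rise of 0.46 ± 0.12 (SE) or 1.38-fold (limma, adjusted p = 0.0461). Tpi1, the isomerase that interconverts the triose phosphates, went from 11.20, 11.24 and 11.31 to 11.55, 11.68 and 11.69, and rose by 0.39 ± 0.09 (adjusted p = 0.0159). Enolase Eno1 went from 12.84, 12.69 and 12.83 to 13.04, 13.05 and 13.03, and rose by 0.25 ± 0.06 (adjusted p = 0.0373, and 0.0548 with the pairing by replicate number). Ldha rose by 0.29 ± 0.07 (adjusted p = 0.0298, and 0.0601 with the pairing). Along these enzymes the rises ran from 1.19-fold (Eno1) to 1.38-fold (Hk2).

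The phosphofructokinase genes moved apart. Pfkm, the muscle-type enzyme, went from 10.07, 10.11 and 10.32 to 9.80, 9.78 and 9.85 and was the 1 member that fell, by 0.35 ± 0.09 (adjusted p = 0.0361). The platelet-type gene Pfkp differed by -0.02 ± 0.09 and was not called, while Pfkl rose as given above. Smooth muscle markers moved in the same comparison: 3 of 6 smooth muscle markers (Tagln, Lmod1 and Des) fell and all 6 had negative differences. The summed level of those markers ran from 11.61 to 11.96 on the collagen control arrays and from 11.24 to 11.39 with TNF (log2 of the sum). Among 6 fibroblast markers Pdgfra rose and Dpt fell, among 5 endothelial markers Cldn5 fell, and among 8 macrophage markers Cd14 rose. The part of these markers in the results was not tested.

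For glucose uptake, Slc2a1, which encodes the widely expressed transporter GLUT1, went from 10.61, 10.85 and 10.64 to 11.03, 11.26 and 11.28. It rose by 0.49 ± 0.10, or 1.4-fold (adjusted p = 0.01). Slc2a3 had a larger difference of 0.61 ± 0.17 and did not pass (adjusted p = 0.0506), although its arrays, at 8.75, 9.04 and 9.10 and 9.30, 9.72 and 9.72, did not overlap. Pdk3, another kinase that restrains pyruvate dehydrogenase, went from 8.61, 8.60 and 8.52 to 8.88, 8.91 and 8.79 and rose by 0.28 ± 0.07 (adjusted p = 0.0229).

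Of the oxygen-sensing genes, Hif1a itself had the smallest adjusted p after Adm. It measured 10.68, 10.72 and 10.68 on the collagen control arrays and 11.11, 11.17 and 11.23 with TNF. The groups were tight and well apart, and the rise was 0.47 ± 0.06, or 1.39-fold (adjusted p = 0.000599). Egln3, a prolyl hydroxylase gene that is itself a HIF target, had values of 8.94, 10.05 and 9.74 and 10.00, 10.83 and 10.91. Replicate 1 was low in both groups and the groups overlapped. Its difference of 1.00 ± 0.30 was not called (adjusted p = 0.069), whereas the pairing by replicate number called it (0.0191).

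Among the other targets, Adm, which encodes the vasodilator peptide adrenomedullin, measured 7.61, 8.29 and 8.02 on the collagen control arrays and 9.17, 9.49 and 9.71 with TNF. Every treated array stood above the highest control, and Adm rose 2.81-fold (1.49 ± 0.17, adjusted p = 0.000146). Ddit4 rose 2.56-fold (1.36 ± 0.24, adjusted p = 0.00362) and Higd1a 1.52-fold (0.60 ± 0.15, adjusted p = 0.0321). Bnip3, a mitophagy receptor and a widely used hypoxia marker, differed by 0.13 ± 0.10 with overlapping arrays and was not called. Of the 12 calls, those of Adm, Ddit4, Hif1a and Slc2a1 held in all 6 fits that left out 1 array. The count was 6 without any single collagen control replicate, 4 without collagen TNF replicate 2, 5 without collagen TNF replicate 3 and 7 without replicate 1 of every group, where 6 of the 12 calls were lost and Egln3 was gained.

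**Figure D3:**
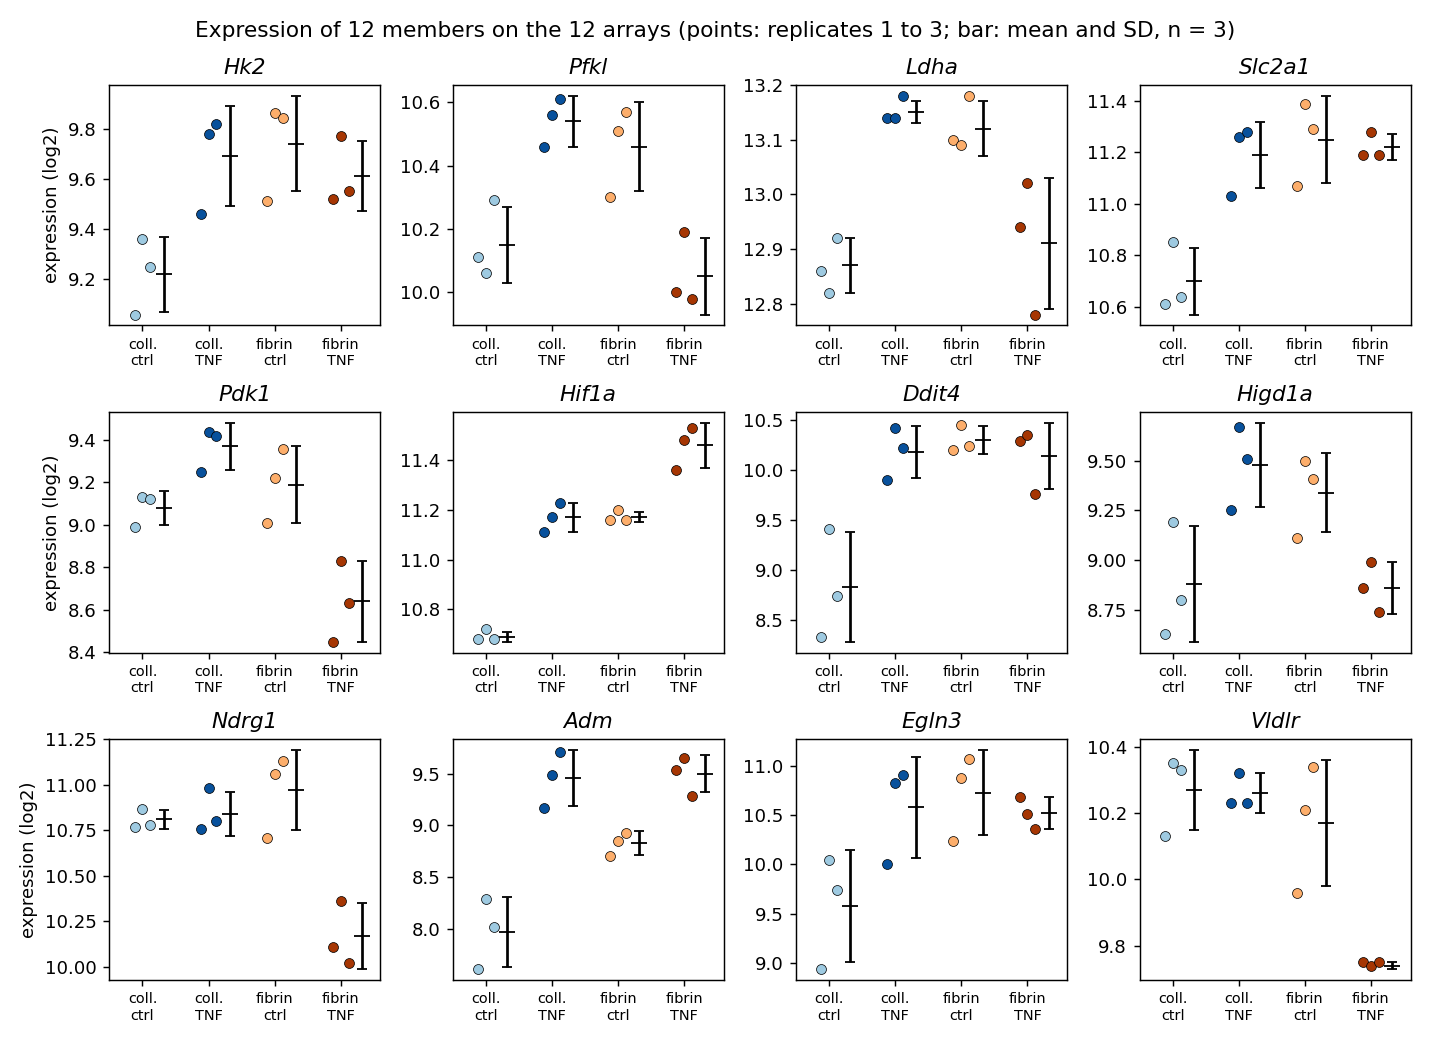
Log2 levels of 12 of the genes on every array (points), with the group mean and SD (n = 3) as lines, and a separate vertical scale for each gene. For Hk2, Slc2a1 and Ddit4 the collagen controls are the low group, for Pdk1 and Ndrg1 the fibrin TNF arrays are, and Hif1a is higher in both TNF groups than in the control of the same gel.

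In fibrin, the gel of the provisional matrix that forms in a clot, TNF lowered some of the same pathway. Of the 38 genes, 6 were called, 1 higher and 5 lower, against 3.13% of all genes called in either direction, 1.65% higher and 1.47% lower. Those that fell were 2 of the 15 glycolytic enzymes (Pfkl and Aldoc), 1 of the 6 transporters and flux regulators (Pdk1) and 2 of the 13 other hypoxia targets (Ndrg1 and Vldlr). Hif1a rose. The median difference of the 38 genes was -0.18, against 0.01 over all genes, and all 15 glycolytic enzymes had a negative value. Non-overlapping arrays were found for 15 genes that were lower, against 7.97% of all genes, and for 3 that were higher, against 10.2%.

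Ndrg1 fell by 0.80 ± 0.12, to a level 1.74-fold lower (limma, adjusted p = 0.00215), the largest change in fibrin among the 6. Aldoc, the brain-type aldolase, went from 9.32, 9.77 and 9.87 on the fibrin control arrays to 8.99, 9.18 and 8.98 with TNF. The groups did not overlap, and it fell by 0.60 ± 0.13, or 1.52-fold (adjusted p = 0.0298). Vldlr, a receptor of triglyceride-rich lipoproteins, went from 9.96, 10.21 and 10.34 to 9.75, 9.74 and 9.75, with nearly equal treated arrays, and fell by 0.43 ± 0.09 (adjusted p = 0.027).

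Hif1a was the 1 called gene that rose. It went from 11.16, 11.20 and 11.16 to 11.36, 11.48 and 11.53. The rise was 0.28 ± 0.06, or 1.22-fold (adjusted p = 0.033, and 0.00438 to 0.161 over the other fits). This call was lost with median centring (0.052), with the pairing by replicate number (0.0515) and with only the groups compared. It was also lost without fibrin control replicate 1, 2 or 3, without fibrin TNF replicate 2 or 3, and without replicate 1 of every group. Adm had a difference of 0.67 ± 0.17 and did not pass (adjusted p = 0.0526), although its values of 8.70, 8.85 and 8.93 and 9.54, 9.65 and 9.29 did not overlap; the pairing called it higher (0.0254). The pairing also called Higd1a (-0.48, 0.0287), the phosphofructokinase-activating enzyme gene Pfkfb3 (-0.49, 0.0133) and the ankyrin-repeat gene Ankrd37 (-0.46, 0.0301) lower. Ndrg1 was the 1 call that held in all 6 fits that left out an array. The count was 1 without fibrin control replicate 2 or 3 or fibrin TNF replicate 3, and 2 without fibrin TNF replicate 1.

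Markers of other cells moved with TNF in fibrin as well. Of 6 fibroblast markers 1 was called lower (Dpt) and 5 had negative differences, with a median of -0.32 and summed levels of 14.94 to 15.11 with TNF against 15.21 to 15.28 without. Of 5 endothelial markers Cldn5 was called lower, of 8 macrophage markers Cd68 was called higher, and limma called 0 of 6 smooth muscle markers (1 at an unadjusted p under 0.05). Their part in the results was not tested.

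Untreated fibrin against untreated collagen asked about the gel alone. This comparison uses the same collagen control arrays as the TNF comparison in collagen, so the values of the 2 comparisons are not independent. It called 10 of the 38 genes, 9 higher and 1 lower in fibrin, against 10.5% of all genes called in either direction, 5.35% higher and 5.19% lower. The counts were 3 higher and 1 lower of the 15 enzymes, 2 higher of the 6 transporters and flux regulators, 2 higher of the 4 oxygen-sensing genes and 2 higher of the 13 other targets. The median difference was 0.12, against -0.01 over all genes. With median centring 12 were called higher and 1 lower. Over all genes the calls were 767 higher and 743 lower as deposited, and 1217 higher and 474 lower with median centring.

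Ddit4 had the largest difference of the 38 genes, 2.77-fold higher in untreated fibrin (1.47 ± 0.24, limma, adjusted p = 0.00123), with all fibrin controls above all collagen controls. Egln3, at 10.24, 10.88 and 11.07 on the fibrin control arrays, was higher by 1.16 ± 0.30 (adjusted p = 0.0251), the lowest fibrin control lying above the highest collagen control. Adm, at 8.70, 8.85 and 8.93, was 1.81-fold higher (0.86 ± 0.17, adjusted p = 0.00541). Hif1a, at 11.16, 11.20 and 11.16, was higher by 0.48 ± 0.06 (adjusted p = 0.000299), and its fibrin controls lay close together.

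Of the genes of glucose uptake and entry, Slc2a1 and Hk2 were higher too, while Slc2a3 was not called (0.40 ± 0.17, limma, adjusted p = 0.174). Slc2a1, at 11.07, 11.39 and 11.29 in fibrin control, was higher by 0.55 ± 0.10 (adjusted p = 0.00287), and Hk2, at 9.51, 9.86 and 9.84, by 0.51 ± 0.12 (adjusted p = 0.0187). Pdk3, at 8.93, 8.96 and 8.88, was higher by 0.34 ± 0.07 (adjusted p = 0.00457). Tpi1, at 11.38, 11.60 and 11.68, was higher by 0.30 ± 0.09 (adjusted p = 0.0421) and Ldha by 0.26 ± 0.07 (adjusted p = 0.0367), and in each the arrays of the 2 gels did not overlap. Pfkm, at 9.62, 9.88 and 9.89, was lower by 0.37 ± 0.09 (adjusted p = 0.0196).

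Markers of other cells moved with this comparison. Of 6 smooth muscle markers 4 were called lower in untreated fibrin, where their summed level ran from 11.13 to 11.53 against 11.61 to 11.96 in collagen. Of 8 macrophage markers 5 were called lower (Csf1r, Cd163, Mrc1, C1qa and C1qb), with summed levels of 12.53 to 12.82 against 12.84 to 13.07. Adgre1 of the same list went the other way without being called, at 9.20, 10.11 and 9.92 in collagen control and 10.17, 10.16 and 10.44 in fibrin control (0.52 ± 0.19, adjusted p = 0.105). Of the fibroblast and endothelial markers Dpt and Cldn5 were called lower. The part of any of these in the results was not tested. The calls of Adm, Ddit4, Hif1a, Pdk3 and Slc2a1 held in all 6 fits that left out 1 array, and the count was 6 without collagen control replicate 1 or fibrin control replicate 2 or 3.

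With TNF present, the median difference of fibrin against collagen had the other sign, in a comparison that shares its arrays with the TNF comparisons above. The comparison called 12 of the 38 genes, 1 higher and 11 lower in fibrin, against 8.19% of all genes called in either direction, 4.55% higher and 3.64% lower. Those lower were 5 of the 15 glycolytic enzymes (Gpi, Pfkl, Aldoc, Pgk1 and Pgam1), 2 of the 6 transporters and flux regulators (Slc2a3 and Pdk1) and 4 of the 13 other targets (Ndrg1, Higd1a, Fam162a and Vldlr). Hif1a was higher by 0.29 ± 0.06 (limma, adjusted p = 0.0147), and was called higher in untreated fibrin too. The genes called lower here were not called between the untreated gels, and the other genes called higher there were not called here, apart from Pfkm, which was called lower there only. The median difference was -0.22, against 0.00 over all genes, and 34 of the 38 were negative. The 2 groups did not overlap for 24 genes that were lower, against 12.9% of all genes.

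Aldoc had the largest difference among the enzymes, with 9.76, 9.87 and 9.96 on the collagen TNF arrays against the fibrin TNF values given above, 1.76-fold lower in fibrin (-0.81 ± 0.13, adjusted p = 0.00219). Gpi, the isomerase between hexokinase and phosphofructokinase, measured 11.81, 11.96 and 11.95 in collagen TNF and 11.44, 11.55 and 11.50 in fibrin TNF, and was lower by 0.41 ± 0.08 (adjusted p = 0.00776). Its highest fibrin TNF array lay below its lowest collagen TNF array. Pfkl was lower by 0.49 ± 0.09 (adjusted p = 0.00555).

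Further down the route, Pgk1, the kinase of the earlier ATP-yielding step, measured 12.01, 12.01 and 12.02 in collagen TNF and 11.81, 11.74 and 11.57 in fibrin TNF, and was lower by 0.30 ± 0.07 (adjusted p = 0.0166). Pgam1, the mutase that follows it, measured 5.99, 6.15 and 6.10 and 5.88, 5.74 and 5.79, and was lower by 0.28 ± 0.07 (adjusted p = 0.0261). The arrays of both genes were fully apart between the gels. Over all 12 arrays, however, Pgam1 lay between 5.74 and 6.15, near the array medians, so its call rests on a low signal. Ldha, at -0.24 ± 0.07, did not pass (adjusted p = 0.0575).

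Slc2a3 measured 9.30, 9.72 and 9.72 in collagen TNF and 8.84, 9.30 and 8.62 in fibrin TNF, and was lower by 0.66 ± 0.17, or 1.58-fold (adjusted p = 0.0306). Its highest fibrin TNF array lay just below its lowest collagen TNF array, both at 9.30 after rounding. Pdk1 was 1.66-fold lower (-0.73 ± 0.11, adjusted p = 0.000962), the smallest adjusted p of this comparison among the 38 genes.

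Of the other targets, Ndrg1 was 1.6-fold lower (-0.68 ± 0.12, adjusted p = 0.0026). Higd1a was lower by 0.61 ± 0.15 (adjusted p = 0.0252). Fam162a, which encodes a mitochondrial protein induced by HIF, measured 11.15, 11.21 and 11.22 in collagen TNF and 10.70, 10.92 and 10.90 in fibrin TNF, and was lower by 0.35 ± 0.09 (adjusted p = 0.035). Vldlr, at 10.23, 10.32 and 10.23 in collagen TNF, was lower by 0.52 ± 0.09 (adjusted p = 0.00373). In each of these genes all fibrin TNF arrays lay below all collagen TNF arrays. By contrast Adm (0.04 ± 0.17), Ddit4 (-0.05 ± 0.24), Slc2a1 (0.03 ± 0.10) and Hk2 (-0.08 ± 0.12), which were higher in untreated fibrin, had overlapping arrays between the treated gels.

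Of the 8 macrophage markers 5 were called lower in treated fibrin, with summed levels of 12.77 to 12.84 in fibrin TNF against 12.98 to 13.32 in collagen TNF, while Adgre1 differed by 0.50 ± 0.19 and was not called. Of 6 fibroblast markers 2 were called lower (Pdgfra and Lum) and all 6 had negative differences, with summed levels of 14.94 to 15.11 in fibrin TNF against 15.17 to 15.30 in collagen TNF. Smooth muscle markers had 0 of 6 called in this comparison by limma (1 at an unadjusted p under 0.05), and the part of any of these markers in the results was not tested. The calls of Aldoc, Gpi, Ndrg1, Pdk1, Pfkl and Vldlr held in all 6 fits that left out 1 array. The count was 6 without collagen TNF replicate 2 or fibrin TNF replicate 3, and 7 without collagen TNF replicate 3.

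**Figure D4:**
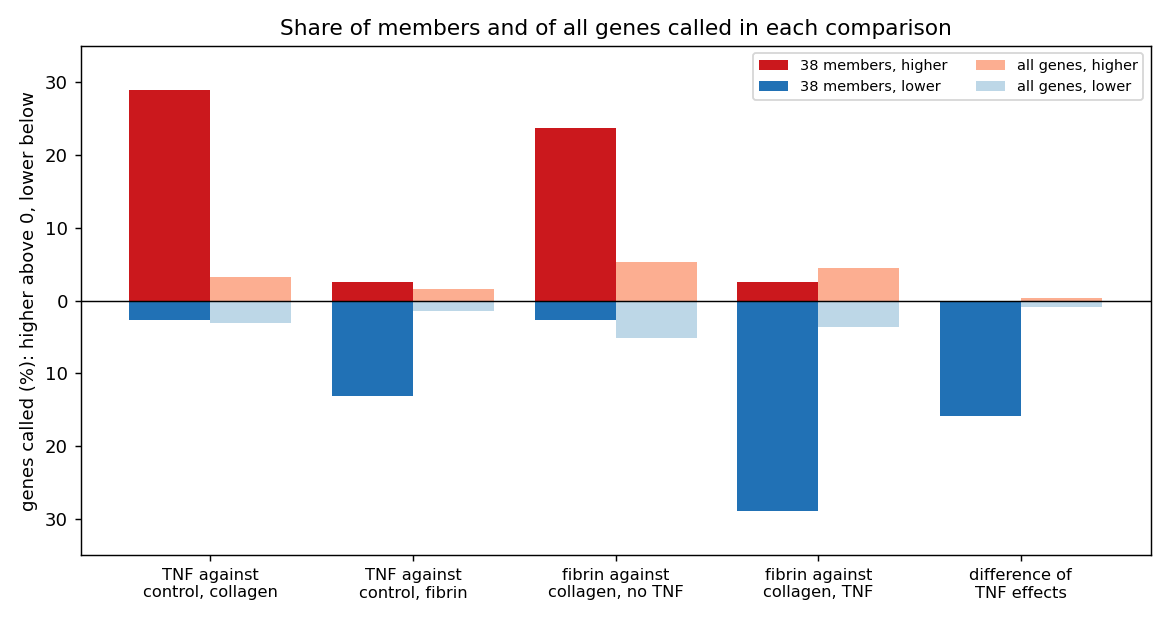
Share of the 38 genes and of all 14324 genes called higher or lower (percent, adjusted p under 0.05 in the limma fit) in each of the 5 comparisons. The 38 genes were called mainly higher with TNF in collagen and in untreated fibrin (11 and 9 genes), and mainly lower with TNF in fibrin, in treated fibrin against treated collagen and for the difference of the TNF effect (5, 11 and 6 genes).

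The 16 genes called in none of the comparisons included some of the best-known members of the pathway. Gapdh, the glyceraldehyde phosphate dehydrogenase often used as a reference gene, measured 13.60 ± 0.02 (SD, n = 3) in collagen control, 13.71 ± 0.02 in collagen TNF, 13.65 ± 0.04 in fibrin control and 13.59 ± 0.04 in fibrin TNF. Its arrays did not overlap in 3 of the 4 pairwise comparisons, with differences of 0.11 ± 0.06 (SE) for TNF in collagen, 0.05 ± 0.06 between the untreated gels and -0.12 ± 0.06 between the treated gels. Aldoa, the muscle-type aldolase, differed by 0.10 ± 0.06 with TNF in collagen and by -0.05 ± 0.06 in fibrin. Pkm, the pyruvate kinase of most tissues, differed by 0.20 ± 0.06 with TNF in collagen (limma, adjusted p = 0.0567) and by -0.08 ± 0.06 in fibrin.

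The neuronal-type enolase Eno2 had values of 10.67 ± 0.21 in collagen control and 10.88 ± 0.15 in collagen TNF, a difference of 0.20 ± 0.16. Pfkfb3 and Pfkfb4 encode enzymes that make and degrade the fructose bisphosphate that activates phosphofructokinase. Pfkfb3 measured 9.17, 9.67 and 9.78 on the fibrin control arrays and 8.78, 9.04 and 9.34 with TNF, with overlap and a difference of -0.49 ± 0.16. Pfkfb4 differed by at most 0.17 in either direction between any of the 4 groups compared.

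Of the oxygen-sensing genes, Epas1, which encodes HIF-2 alpha, and the main oxygen sensor Egln1 were not called. Epas1 differed by 0.11 ± 0.08 with TNF in collagen and by -0.11 ± 0.08 in fibrin, and Egln1 by 0.08 ± 0.11 and -0.11 ± 0.11. Ero1a, an oxidase that forms disulfide bonds in the endoplasmic reticulum, measured 9.82 ± 0.09 in collagen control, 10.21 ± 0.18 in collagen TNF, 10.16 ± 0.26 in fibrin control and 9.83 ± 0.10 in fibrin TNF. Its arrays did not overlap in any of the 4 pairwise comparisons, and its smallest adjusted p in them was 0.0794. Ak4, a mitochondrial adenylate kinase, measured 6.99 ± 0.20, 7.32 ± 0.16, 7.25 ± 0.21 and 6.96 ± 0.17 in the same order of groups, with overlapping arrays. The mitophagy receptor Bnip3l, the histone demethylase Kdm3a and the MYC antagonist Mxi1 had differences from -0.25 to 0.13 over the 4 pairwise comparisons.

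Several members had more than 1 probe set, and families with near-identical copies or pseudogenes can share probes, so these values are uncertain as single genes. Gapdh had 16 probe sets, Eno1, Pkm and Mxi1 3 each, and Ldha, Egln1 and Bnip3 2 each. The 16 Gapdh probe sets gave TNF differences of 0.06 to 0.11 in collagen and of -0.08 to -0.06 in fibrin. The 3 Eno1 probe sets gave 0.22 to 0.25 in collagen. For Egln1 the probe set used gave a TNF difference of -0.11 in fibrin and the other gave -0.33. Their differences of effects were -0.19 and -0.37, and the other Egln1 probe set was not tested.

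The pathway around these genes was read from further lists. Of the monocarboxylate (lactate) transporters, Slc16a3 and Slc16a1 rose with TNF in collagen and Slc16a7 fell, by 0.42 ± 0.11 (limma, adjusted p = 0.0441). Slc16a3, which encodes the lactate exporter MCT4 and is a HIF target, measured 9.08, 9.20 and 9.02 in collagen control and 10.01, 10.15 and 10.16 in collagen TNF. It rose 2.01-fold (1.01 ± 0.10, adjusted p = 5.05e-05), and its difference of effects between gels was -1.10 ± 0.14 (adjusted p = 0.00257). Slc16a1, which encodes MCT1, rose by 0.82 ± 0.09 (adjusted p = 8.54e-05) and had a difference of effects of -0.85 ± 0.12 (adjusted p = 0.00443). In fibrin neither was called with TNF, at -0.09 ± 0.10 and -0.03 ± 0.09. In the list of 23 other glycolysis and lactate genes, 4 were called higher and 1 lower with TNF in collagen (21.7%, against 6.37% of all genes). In fibrin 0 were called higher and 1 lower (4.35%, near the 3.13% of all genes).

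Of 27 further hypoxia targets, 4 were called higher and 1 lower with TNF in collagen (18.5%, against 6.37% of all genes). With TNF in fibrin 0 were called higher and 2 lower (7.41%, against 3.13%). For the difference of effects 0 were called higher and 4 lower (14.8%, against 1.24%). Car9, the carbonic anhydrase that exports acid equivalents and is among the most specific HIF targets, measured 8.36, 9.09 and 9.86 on the fibrin control arrays and 6.28, 6.80 and 6.38 with TNF. It fell 6.14-fold in fibrin (-2.62 ± 0.33, adjusted p = 0.000878), against 0.75 ± 0.33 in collagen, where it was not called, and its difference of effects was -3.36 ± 0.46 (adjusted p = 0.00358). The glycoprotein hormone gene Stc2 (-1.17 ± 0.19), the glycogen synthase gene Gys1 (-0.97 ± 0.19) and the IGF-binding protein gene Igfbp3 (-0.92 ± 0.18) also had a lower TNF effect in fibrin. Vegfa, the angiogenic growth factor, was called in none of the comparisons, with 0.51 ± 0.15 for TNF in collagen (adjusted p = 0.0741) and -0.17 ± 0.15 in fibrin.

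Not all routes of glucose followed this order. Pdk4, a pyruvate dehydrogenase kinase induced by fasting and fatty acids, fell with TNF in both gels, by 1.38 ± 0.18 in collagen (adjusted p = 0.000402) and by 1.22 ± 0.18 in fibrin (adjusted p = 0.00231), with a difference of effects of 0.16 ± 0.25 that was not called. Of 6 pentose phosphate genes, 2 rose with TNF in fibrin, Taldo1 (transaldolase, 0.61 ± 0.09, adjusted p = 0.00307) and Tkt (transketolase, 0.40 ± 0.07, adjusted p = 0.00549), and limma called 0 of 6 in collagen (1 at an unadjusted p under 0.05). Over all genes 3.13% were called with TNF in fibrin and 6.37% in collagen. Tkt had a higher TNF effect in fibrin, by 0.49 ± 0.10 (adjusted p = 0.0269). For the difference of effects limma called 0 of the 12 genes of pyruvate entry to mitochondria, 0 of the 11 other genes of the HIF pathway and 0 of the 6 of gluconeogenesis, with 2, 0 and 2 at an unadjusted p under 0.05. Over all genes 1.24% were called for it.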

How the data were processed

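The deposited table gives 1 expression value for each of 27342 probe sets on 12 Affymetrix whole-transcript arrays (200 ng of total RNA, per the labels' protocols), with 0 missing values. The deposited values, 1.44 to 14.07, were read as log2 from their range. Their summarisation, background correction and normalization are not given in the sources used here, and the submitters' processing notes name limma. Groups and replicate numbers came from the sample titles, since a tissue label names collagen for the fibrin samples too. The probe annotation gave 1 symbol for 15097 probe sets, several for 323 and none used here for 11922, and for 15067 the gene identifier was found in a RefSeq table of assembly GRCr8, where 0 symbols differed. The probe set of highest mean stood for each of 14324 genes, of which 499 had more than 1.

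The 4 group means were estimated from all 12 arrays in R 4.3.3 by lmFit and eBayes of limma 3.58.1, and p-values were adjusted by Benjamini-Hochberg within each comparison. The number of arrays limits the precision, with a median SE of 0.0937 for a difference of 2 groups and 0.133 for a difference of effects. The fit was tested on simulated data. All measured members could be named, with array values for those called in at least 1 comparison or singled out for not being called. Of each further list up to 6 called genes and up to 3 others could be named in a comparison, with Car9, Slc16a3 and Vegfa allowed in any. Members and lists were chosen with earlier results of these data known.

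Deviations of same-numbered arrays from their group means correlated at 0.133, 0.139 and 0.144 in collagen and at 0.248, 0.144 and 0.159 in fibrin, so replicate numbers were taken to pair arrays within a gel; the labels do not say what a number marks. The fits reported use no pairing. Alternatives were quantile normalization, median centring, leaving out the dimmest genes, a trended and robust prior, array weights, the mean over probe sets, only the groups compared, the replicate block, leaving out each array and, chosen after seeing the data, leaving out replicate 1 of every group. Promoter letters were searched on both strands.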

Additional observations from a re-analysis of the deposited data

Results flagged for a closer look

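For 14 genes the test of the difference itself (limma, adjusted p under 0.05) found unlike TNF effects in the 2 gels. Of the members these were Pfkl (-0.79, log2, fibrin minus collagen), Ldha (-0.50), Pdk1 (-0.85), Ddit4 (-1.52), Ndrg1 (-0.84) and Higd1a (-1.08). Of the further pathway genes they were Slc16a1 (-0.85), Slc16a3 (-1.10), Car9 (-3.36), Stc2 (-1.17), Igfbp3 (-0.92), Gys1 (-0.97), the phosphoglucomutase gene Pgm1 (-0.48) and, with the opposite sign, Tkt (0.49).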

How the results depend on the processing

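No call of a member changed its direction under any alternative. Percentages in brackets are the share of all genes in the same fit that was called. For TNF in fibrin 6 members were called as reported (3.13%). A trended, robust prior called 11 (4.56%) and a fit of only the groups compared called 3 (1.61%). For untreated fibrin against collagen, only the groups compared called 6 (8.57%) in place of 10 (10.5%). For the difference of effects, 6 were called as reported (1.24%). The count was 12 without the dimmest genes (3.08%), 14 with the trended, robust prior (2.37%) and 10 with the replicate block (1.45%). Leaving out replicate 1 of every group called 7 for TNF in collagen (3.67%). It called 1, a gene other than the 6, for the difference of effects (0.251%). That fit called 5 for TNF in fibrin (1.32%), 7 between the untreated gels (5.71%) and 10 between the treated gels (3.72%). Of the calls as reported, 2 of 6, 3 of 10 and 4 of 12 were lost there, in that order. Leaving out 1 array gave 4 to 10 calls for TNF in collagen (3.97% to 5.37%) and 1 to 6 for TNF in fibrin (1.65% to 3.76%). Between the untreated gels it gave 6 to 11 (7.48% to 9.06%) and between the treated gels 6 to 12 (5.08% to 8.35%). For the difference of effects it gave 1 to 8 (0.719% to 1.72%). The replicate block called 14, 9, 13 and 14 members in the 4 comparisons of 2 groups (7.11%, 3.88%, 10.7% and 8.38%). Whether arrays of the same number in the 2 gels share more than that number is not given by the labels (correlations of 0.233, 0.0812 and 0.129 without TNF, and of 0.053, 0.0311 and 0.143 with TNF). Between the gels the block lost Ldha without TNF and Pgam1 with TNF. The cause of these changes was not tested, and the fits that left out arrays or genes also held fewer of them. The number of arrays (3 a group) limits the precision: the median SE over all genes was 0.0937 for a difference of 2 groups and 0.133 for a difference of effects.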
